A study of Rattus norvegicus with 12 samples.

Results

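Lysosomal cathepsins and legumain are the proteases that digest proteins inside the lysosome. The transcripts of 9 of them were looked up by gene symbol in rat laryngeal muscle: the cathepsins Ctsb, Ctsc, Ctsd, Ctsh, Ctsk, Ctsl, Ctss and Ctsz, and legumain, Lgmn. Of these 9, 8 had a probe set with that single symbol in the platform annotation, 1 each, among 14329 genes tested. Ctsz was not analysed here.

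The 12 whole-transcript arrays formed 4 groups of 3, and all rats were male F344 animals given ketamine and xylazine for surgery; their age was not given in the sources used here. In PCA injury and AC injury, a 1 cm piece of the recurrent laryngeal nerve had been cut out on one side 1 week earlier, and in PCA control and AC control the surgeons made the same approach and spared the nerve. PCA is the posterior cricoarytenoid muscle, which opens the glottis, and AC is the laryngeal adductor complex, which closes it. The labels count 10 animals per surgery group, but do not tie an array to an animal or say whether specimens were pooled or whether both muscles of an animal were used, so p-values measure the spread between arrays, which may be technical.

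Most cathepsins are cysteine proteases of the papain family, made as inactive precursors, carried to the lysosome on mannose 6-phosphate receptors and activated at acid pH. Legumain, a cysteine protease of another family, cuts after asparagine and processes several cathepsins, and cystatins bind and block these enzymes. Macrophages are rich in lysosomal proteases and use them to digest engulfed debris and to prepare antigen; muscle fibres contain them too, and autophagy delivers fibre proteins to them.

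Each array was the log2 signal of RNA from bulk dissected tissue, so more cells of one type and more RNA per cell cannot be told apart. The labels give 30 to 50 mg of tissue and 100 ng of labelled RNA. That the specimens held skeletal muscle was borne out by Acta1, skeletal actin, and Ckm, muscle creatine kinase. Acta1 lay between 13.4 and 13.68 and Ckm between 12.85 and 13.43 on all 12 arrays, on a scale whose highest value was 14.04. These ranges do not tell PCA from AC. Array medians lay between 7.11 and 7.17. Markers of thyroid and parathyroid, 14 in all, averaged 6.37 to 7.11 on 9 arrays but stood higher on 3: PCA control 1 (9.90), PCA injury 2 (9.62) and AC injury 2 (8.44). Results are given without these 3 arrays where a call changed.

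Upstream sequence was available for 8 of the 9 genes, from RefSeq on GRCr8; Ctsb had no entry. Of these 8 stretches of 250 bases before the transcript start, those of Ctsd and Ctss held motifs closest to the start and that of Lgmn, the gene with the largest rise, held none of those searched. They are printed 5′ to 3′ on the gene's strand, with matches in capitals.
Ctsd, chr1:206968822-206969071, minus strand: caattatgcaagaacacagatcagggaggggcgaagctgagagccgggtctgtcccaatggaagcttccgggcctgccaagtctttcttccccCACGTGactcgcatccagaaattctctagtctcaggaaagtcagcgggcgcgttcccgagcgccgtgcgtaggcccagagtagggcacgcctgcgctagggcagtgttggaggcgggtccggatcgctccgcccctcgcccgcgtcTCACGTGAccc
Ctss, chr2:185775146-185775395, plus strand: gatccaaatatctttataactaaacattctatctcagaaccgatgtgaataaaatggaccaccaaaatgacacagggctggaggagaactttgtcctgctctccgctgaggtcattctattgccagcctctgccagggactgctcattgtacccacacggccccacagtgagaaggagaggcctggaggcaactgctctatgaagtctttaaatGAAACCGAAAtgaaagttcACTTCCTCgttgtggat
Lgmn, chr6:127347329-127347578, minus strand: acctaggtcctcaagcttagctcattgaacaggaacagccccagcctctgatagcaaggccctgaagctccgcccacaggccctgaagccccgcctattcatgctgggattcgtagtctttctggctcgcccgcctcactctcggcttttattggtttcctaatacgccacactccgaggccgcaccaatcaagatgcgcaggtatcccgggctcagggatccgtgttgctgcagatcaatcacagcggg

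Both strands were searched for 4 motifs. The hexamer CACGTG, the E-box bound by many basic helix-loop-helix factors, was found in 1 of the 8 member stretches, that of Ctsd, at 157 and 10 bases before the start, and in 5.59% of all 33469 stretches. The second of these lies inside TCACGTGA, the core of the element known to bind TFEB, a regulator of lysosomal genes, which 0.657% of all stretches held. GAGGAAGT, a form of the site of PU.1, a factor of the myeloid lineage, began 17 bases before the Ctss start and 248 bases before the Ctsc start, both on the opposite strand, and was held by 2.04% of all stretches. A form of the interferon-stimulated response element, with 2 bases of any kind between a pair of GAAA runs, began 36 bases before the Ctss start, as GAAACCGAAA, and was held by 3.41%. A match describes the letters and shows no binding, and this last motif was searched after its sequence had been seen.

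The first question was whether the proteases differed in injured PCA. Of the 8 measured genes, 7 rose and none fell, where 13.3% of all 14329 genes rose and 12.5% fell. The 3 injured arrays lay above the 3 controls for 7 of the 8, against 18.2% of all genes. The median difference over the 8 genes was 0.74 (log2), and over all genes -0.03. Differences are given as injury minus control on the log2 scale ± the SE from limma, with 3 arrays a group, and adjusted p is limma's, over all genes.

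Legumain had the largest difference. In PCA controls Lgmn stood at 9.09, 9.67 and 9.30, and in injured PCA at 11.29, 10.93 and 10.84, so that the lowest injured array lay above the highest control. The rise was 1.67 ± 0.18, or 3.18-fold (adjusted p = 0.000272), the 57th smallest p of all genes. 

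The papain-type endopeptidases followed. Ctsk, cathepsin K, the collagen-degrading enzyme known from osteoclasts, stood at 8.65, 8.92 and 8.93 in PCA controls and at 10.51, 10.01 and 9.94 in injured PCA, a rise of 1.32 ± 0.21 or 2.50-fold (adjusted p = 0.00147). All 3 injured arrays lay over 1 log2 unit above the highest control. Of the osteoclast markers, Calcr, the calcitonin receptor, lay between 5.29 and 5.57 on all arrays and Mmp9 rose by 3.95 ± 0.42 in PCA. In AC the Mmp9 difference was 0.71 and did not pass. Between controls, PCA minus AC, Mmp9 was at -2.8, which passed, so its PCA rise began from a lower control level. The other 7 listed were not analysed here. Ctss, cathepsin S, which trims the invariant chain of MHC class II and stays active at neutral pH, stood at 9.20, 9.62 and 9.60 in controls and at 10.74, 10.41 and 10.47 after injury. Its rise was 1.07 ± 0.13 or 2.10-fold (adjusted p = 0.000458), with no overlap between the groups. Ctsl, cathepsin L, a broad endopeptidase of most cells, stood at 10.77, 10.14 and 10.22 in controls and at 11.36, 11.08 and 10.96 after injury. Its rise was 0.76 ± 0.17 or 1.69-fold (adjusted p = 0.0073). PCA control 1 lay above the other Ctsl controls, and the difference was 0.95 ± 0.14 without that array. Rodents carry further genes like cathepsin L, and hybridisation of their transcripts to this probe set was not tested.

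The remaining members include enzymes that trim from a protein's end and an aspartic protease. Ctsb, cathepsin B, which also trims dipeptides from the carboxyl end, stood at 12.40, 12.26 and 12.17 in PCA controls and at 13.15, 13.01 and 12.83 after injury. It rose by 0.72 ± 0.11 or 1.65-fold (adjusted p = 0.00117), again without overlap. Ctsd, cathepsin D, the main aspartic protease of the lysosome, stood at 11.18, 11.42 and 11.26 in controls and at 12.05, 11.99 and 11.89 after injury, and rose by 0.69 ± 0.09 or 1.61-fold (adjusted p = 0.000504). Ctsc, cathepsin C, a dipeptidyl peptidase that activates granule serine proteases, stood at 10.89, 10.93 and 11.01 in controls and at 11.70, 11.41 and 11.34 after injury. Its rise was 0.54 ± 0.10 or 1.45-fold (adjusted p = 0.00361). For both genes the groups lay apart. Ctsh, cathepsin H, an aminopeptidase, was the member that did not pass: it stood at 10.83, 10.91 and 10.94 in controls and at 11.26, 11.09 and 10.93 after injury, a difference of 0.20 ± 0.09 (95% interval 0.0029 to 0.40, adjusted p = 0.13). PCA injury 3 lay within the control range for Ctsh, and without that array the difference was 0.28 ± 0.09 (adjusted p = 0.0367), which makes 8 genes past the test. Without the 3 arrays with thyroid transcripts the 7 genes still passed, with Lgmn at 1.58 ± 0.22 and Ctsl at 0.98 ± 0.16.

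**Figure D1:**
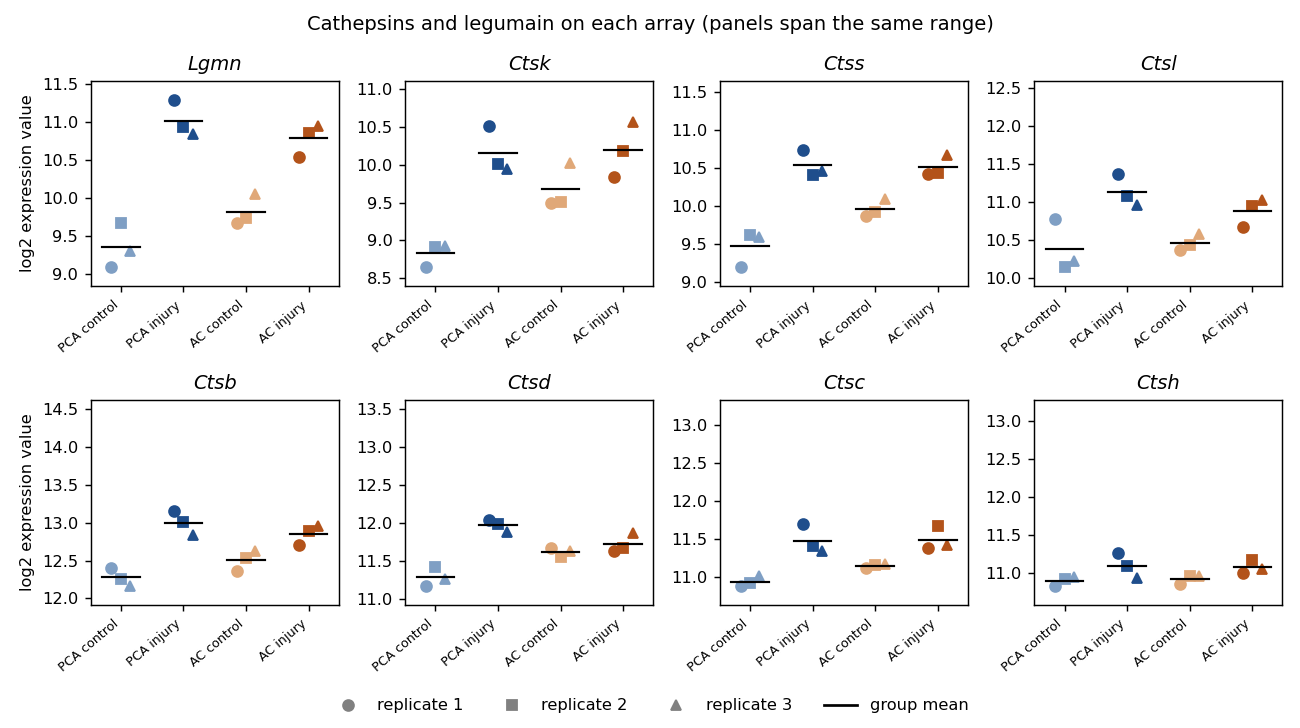
Log2 expression value (vertical axis) of the 8 measured genes on each of the 12 arrays, by group; symbols mark the replicate number, black lines the group mean of 3 arrays, and panels cover the same range of log2 units. In PCA the injured arrays lie above the controls for every gene except Ctsh, and PCA controls have the lowest mean in all 8 panels.

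In injured AC, only Lgmn of the 8 genes passed the test. It stood at 9.67, 9.73 and 10.05 in AC controls and at 10.54, 10.86 and 10.95 after injury, a rise of 0.97 ± 0.18 or 1.95-fold (adjusted p = 0.0281). This makes 1 of 8 genes, where 1.15% of all genes rose in AC. All 3 injured arrays lay above the controls for 6 of the 8 members, against 15.3% of all genes, and all 8 differences were above 0, with a median of 0.38 against 0.02 over all genes. The call on Lgmn was lost without AC control 1 (0.89 ± 0.20, adjusted p = 0.105), AC control 2 (0.92 ± 0.20, adjusted p = 0.131), AC injury 2 (0.93 ± 0.20, adjusted p = 0.127) or AC injury 3 (0.88 ± 0.20, adjusted p = 0.103), without the 3 arrays with thyroid transcripts (0.93 ± 0.20, adjusted p = 0.132), and with replicate number as a block (adjusted p = 0.066).

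The other members had smaller differences in AC. Ctss stood at 9.87, 9.92 and 10.10 in AC controls and at 10.42, 10.44 and 10.68 after injury, 0.55 ± 0.13 higher (adjusted p = 0.0615), with no overlap of the groups. It passed without PCA control 1 (adjusted p = 0.0413) or PCA injury 1 (adjusted p = 0.0377), arrays that enter only through the shared spread. Ctsk stood at 9.50, 9.51 and 10.02 in controls and at 9.83, 10.18 and 10.56 after injury; AC injury 1 lay below AC control 3, and the difference was 0.51 ± 0.21 (adjusted p = 0.201). Ctsl at 0.42 ± 0.17 (adjusted p = 0.189), Ctsb at 0.35 ± 0.11 (adjusted p = 0.111) and Ctsc at 0.35 ± 0.10 (adjusted p = 0.0975) did not pass although their groups did not overlap. Ctsc passed without PCA injury 1 (adjusted p = 0.0457). Ctsh was at 0.15 ± 0.09 (adjusted p = 0.377). Ctsd had the smallest difference in AC: it stood at 11.67, 11.55 and 11.64 in controls and at 11.64, 11.68 and 11.87 after injury, so the groups overlapped, with a difference of 0.11 ± 0.09 (95% interval -0.08 to 0.30, adjusted p = 0.538).

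The next comparison was whether the injury difference itself was unequal between the muscles. Limma called 0 of the 8 genes for the AC difference minus the PCA difference (5 at an unadjusted p under 0.05, all below 0), where 0.154% of all genes were called. All 8 values lay below 0, between -0.81 and -0.05. Ctsd came closest, at -0.58 ± 0.13 (unadjusted p = 0.000702, adjusted p = 0.0684), and it passed without PCA control 2 (-0.65 ± 0.12, adjusted p = 0.026) and with array weights (-0.60 ± 0.12, adjusted p = 0.0363). Ctsk was at -0.81 ± 0.30 (adjusted p = 0.216) and Lgmn at -0.70 ± 0.25 (adjusted p = 0.195), with 95% intervals of -1.46 to -0.15 and -1.24 to -0.16.

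**Figure D2:**
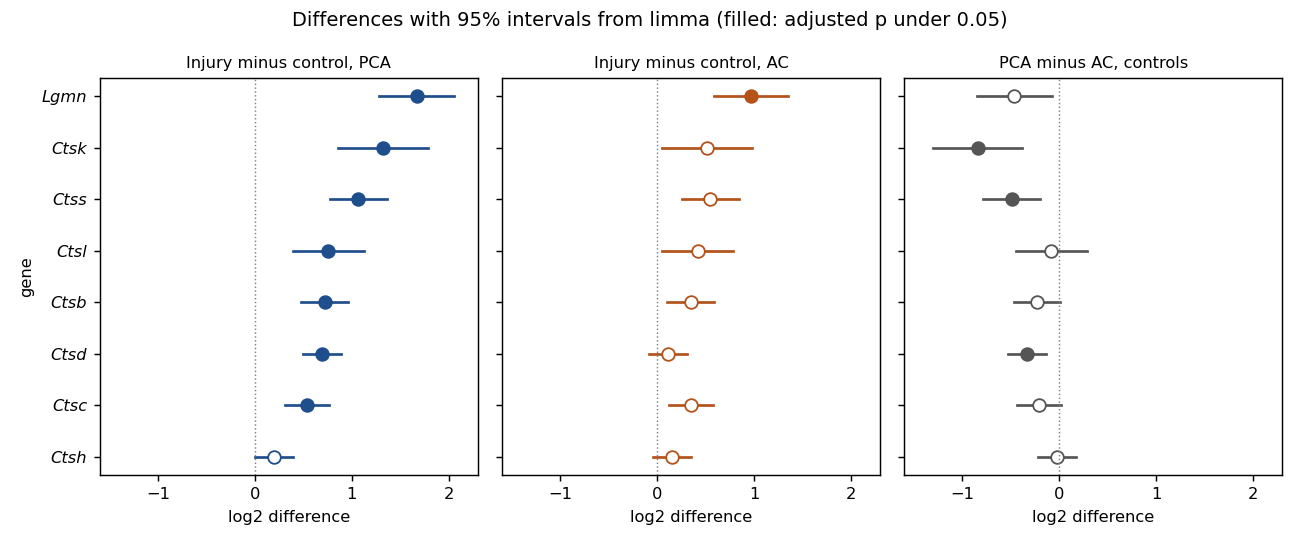
Log2 difference (horizontal axis) of each of the 8 genes with its 95% interval from limma, for injury minus control in PCA, injury minus control in AC, and PCA minus AC in controls; filled points passed at an adjusted p of 0.05. In PCA 7 genes passed, in AC Lgmn passed, and in controls Ctsk, Ctss and Ctsd were lower in PCA.

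The muscles of the control animals, operated on with the nerve spared, also differed. In these controls, 3 of the 8 genes were lower in PCA than in AC and none higher, where 7.39% of all genes were lower. Ctsk was lower by 0.84 (-0.84 ± 0.21, adjusted p = 0.0276), Ctss by 0.49 (-0.49 ± 0.13, adjusted p = 0.0389) and Ctsd by 0.33 (-0.33 ± 0.09, adjusted p = 0.0354). For these 3 and for Ctsc the PCA controls all lay below the AC controls, 4 of 8 genes against 15.9% of all genes. Lgmn was at -0.46 ± 0.18 (adjusted p = 0.119), Ctsb at -0.23 ± 0.11 (adjusted p = 0.206), and Ctsh at -0.02 ± 0.09 and Ctsl at -0.08 ± 0.17 lay near 0. None of the 3 calls held without PCA control 1, where Ctsk was at -0.75 (adjusted p = 0.0943), Ctss at -0.35 (adjusted p = 0.125) and Ctsd at -0.28 (adjusted p = 0.123). The number called was 0 also without PCA control 3, AC control 1 or AC control 3, 1 without AC control 2, 2 without AC injury 1 or AC injury 2, where Ctss was lost, and 4 without PCA control 2, where Lgmn passed as well (adjusted p = 0.048).

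The muscles were also compared in injured animals. Limma called 0 of the 8 genes between injured PCA and injured AC (1 at an unadjusted p under 0.05), where 0% of all genes were called (517 at an unadjusted p under 0.05). The one was Ctsd, higher in PCA by 0.25 ± 0.09 (adjusted p = 0.999), and it was also the 1 member whose groups did not overlap with PCA above, against 2.21% of all genes. Ctsk, the gene furthest apart in controls, was at -0.04 ± 0.21 in injured muscle, with a 95% interval of -0.50 to 0.42, and Ctss at 0.03 ± 0.13, with an interval of -0.27 to 0.32. Ctsl was at 0.25 ± 0.17 (-0.11 to 0.62), Lgmn at 0.24 ± 0.18 (-0.15 to 0.62) and Ctsb at 0.14 ± 0.11 (-0.10 to 0.38). Ctsc was at -0.01 ± 0.10 and Ctsh at 0.02 ± 0.09. The lack of calls thus does not show that the muscles were alike. Over the 4 groups, the PCA control mean was the lowest and the AC control mean the next lowest for all 8 genes, while PCA injury had the highest mean for 6 and AC injury for Ctsc and Ctsk. The neighbours at the upper end of that order, the 2 injured groups, did not differ by the test for any gene. The injury and control comparisons share these arrays and are not independent of each other.

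Within the injured groups the members ranked the arrays alike. PCA injury 1 had the highest value of its group for all 8 genes, and PCA injury 3 the lowest for 7. AC injury 1 had the lowest value for all 8, and AC injury 3 the highest for 6. In AC controls, replicate 1 was the lowest for 7 of the 8. PCA controls had a more mixed order: replicate 1 was the lowest for 6 genes but the highest for Ctsb and Ctsl, and replicates 2 and 3 were each the highest for 3. The mean over the 8 genes was 11.15 to 11.51 in injured PCA, above 10.38 to 10.48 in PCA controls, and 11.02 to 11.32 in injured AC, above 10.68 to 10.89 in AC controls.

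Macrophage markers were also lowest in PCA controls and higher in the injured groups than in either control group. Their mean over 18 measured genes was 7.92 to 8.59 in PCA controls and 9.41 to 9.85 in injured PCA, highest in PCA injury 1, and 8.73 to 8.97 in AC controls and 9.30 to 9.65 in injured AC, lowest in AC injury 1 and highest in AC injury 3. Of the 18, 15 rose in PCA and 3 in AC, and 6 were lower in PCA than in AC controls. Of all genes, 13.3% rose in PCA, 1.15% rose in AC and 7.39% were lower in PCA than in AC controls. None of the 18 was at the lowest value of the scale, 2.57; the lowest single value was 5.76, of Itgam. Cd68, a lysosomal membrane protein of macrophages, rose by 2.76 ± 0.27 in PCA (adjusted p = 0.000207) and by 1.28 ± 0.27 in AC (adjusted p = 0.0429). Without the 3 arrays with thyroid transcripts 15 macrophage markers still passed in PCA and 0 in AC, where Cd68 was at 1.26 ± 0.31 (adjusted p = 0.156), and 0 differed between controls; Cd68 in AC passed in 5 of the 12 fits that left out 1 array each, and not without PCA control 3, PCA injury 2, any AC control, AC injury 2 or AC injury 3. Cd14, the lipopolysaccharide co-receptor, rose in PCA (1.03 ± 0.24, adjusted p = 0.00894), and Cd163, the haemoglobin scavenger receptor, was at 0.22 ± 0.25 (adjusted p = 0.582). The part of macrophage content in the protease differences was not tested.

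Markers of other cells and tissues differed between the groups as well. The counts below stand beside these shares of all genes: 13.3% rose and 12.5% fell in PCA, and 1.15% rose and 0.761% fell in AC. Between controls 3.24% of all genes were higher and 7.39% lower in PCA than in AC. Of 11 antigen presenting cell markers 7 rose in PCA and 1 in AC, and without the 3 arrays with thyroid transcripts 6 and 0. Of 16 neutrophil and mast cell markers 2 rose in PCA, 4 fell in AC and 10 were lower in PCA than in AC controls. Without those 3 arrays these counts were 3, 0 and 7. Among all the marker lists, cartilage, fat and squamous epithelium had the largest shares of called genes in PCA. Of 14 cartilage markers 13 fell in PCA, with a median of -1.43, and 9 were higher in PCA than in AC controls; their mean was 9.38 to 10.06 in PCA controls, 8.23 to 8.48 in injured PCA, 8.39 to 9.19 in AC controls and 8.50 to 8.83 in injured AC. Of 12 adipocyte markers 11 fell in PCA, with a median of -0.92, and 10 were higher in PCA than in AC controls, with means of 8.49 to 8.92, 7.32 to 7.95, 7.45 to 7.50 and 7.25 to 7.78 in the same order. Limma called 0 markers of either list in AC (1 cartilage and 0 adipocyte markers lower at an unadjusted p under 0.05). The mean over 13 fibroblast markers was 10.04 to 10.52 in PCA controls and 11.10 to 11.41 in injured PCA, and 10.44 to 10.97 in AC controls and 11.00 to 11.40 in injured AC; 10 of 13 rose in PCA and 1, Fap, in AC (0.92 ± 0.18, adjusted p = 0.0358; 0.85 ± 0.21 and adjusted p = 0.16 without those 3 arrays, and not called without PCA control 2, PCA control 3, any AC control, AC injury 2 or AC injury 3). The mean over 14 skeletal muscle markers was 12.78 to 12.92 in PCA controls and 11.96, 12.23 and 12.68 in PCA injury 1, 2 and 3. In PCA it was thus lowest on the array where the proteases were highest, and 7 of the 14 fell. In AC injury 1, 2 and 3 it was 12.45, 12.20 and 12.39, so the lowest was AC injury 2, while the proteases were highest on AC injury 3. Squamous epithelium markers averaged 7.38 to 9.30 in PCA controls and 9.78 to 10.35 in injured PCA, but 10.36 to 10.76 in AC controls and 9.90 to 10.38 in injured AC. Of these 10 markers, 9 rose in PCA, 0 were called in AC, and 9 were lower in PCA than in AC controls. Without the 3 arrays with thyroid transcripts, 5 fibroblast, 2 muscle, 5 squamous, 11 cartilage and 11 adipocyte markers still passed in PCA in these directions. Between controls, 2 cartilage and 9 adipocyte markers were then higher in PCA than in AC, and 6 squamous markers were lower. The part of these cells and tissues in the protease differences was not tested.

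**Figure D3:**
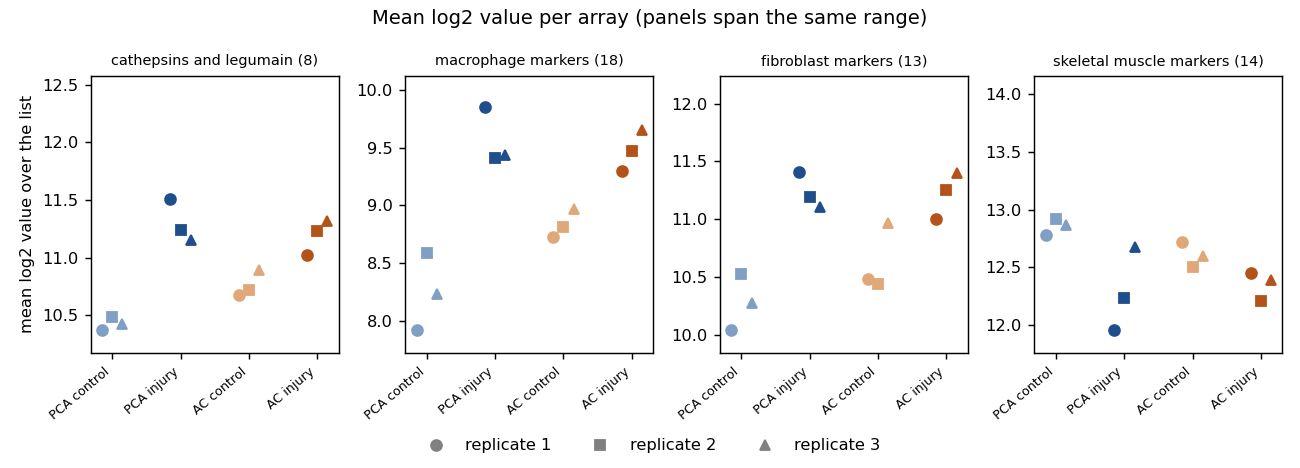
Mean log2 value per array (vertical axis) over the 8 cathepsins and legumain, 18 macrophage, 13 fibroblast and 14 skeletal muscle markers, by group; symbols mark the replicate number and panels cover the same range. PCA injury 1 is highest for proteases (11.51) and macrophage markers (9.85) and lowest for muscle markers (11.96). In AC the proteases are highest on AC injury 3 (11.32) and the muscle markers lowest on AC injury 2 (12.20).

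The lysosome around these proteases was followed through 8 further gene lists. For comparison, 13.3% of all genes rose and 12.5% fell in PCA, and 1.15% rose and 0.761% fell in AC. Among 12 other lysosomal proteases 6 rose in PCA and none fell, with a median difference of 0.42: the carboxypeptidases Scpep1 (1.14 ± 0.15) and Prcp (0.71 ± 0.07) and the tripeptidyl peptidase Tpp1 (0.48 ± 0.08) had the smallest p. In AC limma called 0 of the 12 (6 higher and 1 lower at an unadjusted p under 0.05); it called 2 without PCA injury 1 or PCA injury 3 and 1 without AC injury 1. Of 27 hydrolases of sugars and lipids 19 rose in PCA and none fell, with a median of 0.43. They included Lipa, the acid lipase (1.01 ± 0.10), Gm2a, the activator of ganglioside breakdown (0.99 ± 0.13), and Grn, progranulin (0.90 ± 0.12). In AC 1 rose, Gusb, the beta-glucuronidase (0.52 ± 0.11, adjusted p = 0.0437), and 15 were higher at an unadjusted p under 0.05. The AC count ran from 0 to 8 when single arrays were left out, with 8 without AC injury 1, 5 without PCA injury 1 or PCA injury 3, 1 without PCA injury 2, and 0 without each of the others; Gusb was at 0.51 ± 0.13 (adjusted p = 0.165) without the 3 arrays with thyroid transcripts.

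Among the inhibitors 1 gene rose in both muscles. Cst7, cystatin F, an inhibitor of immune cells that is taken into lysosomes and blocks cathepsins C and L among others, stood at 7.05, 7.46 and 7.30 in PCA controls and at 9.31, 9.11 and 9.60 after injury, a rise of 2.07 ± 0.17 (adjusted p = 0.000173). In AC it stood at 7.46, 7.50 and 7.58 in controls and at 9.72, 9.03 and 9.31 after injury, a rise of 1.84 ± 0.17 (adjusted p = 0.00233). All 6 injured arrays lay over 1 log2 unit above all 6 controls, and the AC rise passed in all 12 fits that left out 1 array, and without the 3 arrays with thyroid transcripts (2.00 ± 0.14, adjusted p = 0.0048). Of 11 cystatins and related inhibitors 4 rose in PCA and none fell: besides Cst7 these were the intracellular stefins Cstb (1.02 ± 0.13) and Csta (1.24 ± 0.29) and Stfa3 (4.36 ± 1.28), named after its value was seen. In AC Csta was at -0.13 ± 0.29 and Stfa3 at -0.11 ± 1.28. Their PCA controls spread from 6.40 to 7.16 for Csta and from 3.84 to 11.04 for Stfa3, and for both, as for the squamous markers, PCA control 3 was the lowest array and PCA control 2 the highest of the 3. Cst3, cystatin C, the abundant secreted inhibitor, was at -0.19 ± 0.09 in PCA (adjusted p = 0.147) and -0.03 ± 0.09 in AC. The count of 4 became 2 without the 3 arrays with thyroid transcripts. With all arrays, 13.3% of all genes rose in PCA and 1.15% in AC.

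The route and the acid pump of the lysosome showed smaller differences. The counts here stand beside 13.3% of all genes that rose in PCA and 1.15% that rose in AC. Of 12 sorting genes 4 rose in PCA: the adaptor subunit Ap1s1 (0.78 ± 0.09), the mannose 6-phosphate receptors M6pr (0.31 ± 0.09) and Igf2r (0.35 ± 0.10), and the retromer subunit Vps35 (0.29 ± 0.09), with a median over the list of 0.14. That count was 2 without PCA control 1, 2 without PCA control 2 1 without PCA injury 1, and 2 without the 3 arrays with thyroid transcripts. Of 17 proton pump genes 10 rose, with a median of 0.29, among them Atp6v1b2 (0.90 ± 0.12), Atp6v1a (0.76 ± 0.13) and Atp6v0d2 (1.85 ± 0.34), a subunit known from osteoclasts and macrophages; the count was 6 without PCA control 2 and 6 without the 3 arrays with thyroid transcripts. Of 16 membrane genes 7 rose, with a median of 0.15: Slc11a1, a metal transporter of phagocytes (2.53 ± 0.37), Laptm5 of leukocytes (1.72 ± 0.23) and the tetraspanin Cd63 (0.60 ± 0.09) had the smallest p, and the general lysosomal marker Lamp1 was at 0.08 ± 0.07. In AC Cd63 rose (0.53 ± 0.09, adjusted p = 0.0233) and the 16 membrane genes gave no other call, where the count was 0 without AC control 1, AC control 2, AC injury 2 or AC injury 3 and 2 without PCA injury 1, PCA injury 3 or AC injury 1; without the 3 arrays with thyroid transcripts Cd63 was at 0.51 ± 0.10 (adjusted p = 0.132). Limma called 0 sorting genes (1 higher and 1 lower at an unadjusted p under 0.05) and 0 pump genes (2 higher) in AC, and 1 of each without PCA injury 1.

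Regulators and autophagy genes moved in both directions in PCA, where 13.3% of all genes were higher and 12.5% lower. Of 11 regulators 2 rose in PCA, Tfec (1.32 ± 0.19), a TFEB relative of myeloid cells, and Rragc (0.45 ± 0.09), a GTPase that ties mTORC1 to the lysosome; 3 fell, Flcn (-0.39 ± 0.09), Rragd (-0.82 ± 0.22) and Lamtor2 (-0.35 ± 0.11). The fallen numbered 1 without PCA control 1, PCA control 3, PCA injury 1 or PCA injury 2. Tfeb was at 0.0033 ± 0.11. Of 27 autophagy genes 1 rose, Bnip3l (0.31 ± 0.07), and 5 fell, among them Bnip3 (-0.89 ± 0.15), Atg13 (-0.47 ± 0.09) and Optn (-0.52 ± 0.12), with a list median of -0.11; the fallen numbered 3 without PCA control 2, PCA control 3 or PCA injury 1, and the risen 2 without PCA injury 3. In AC limma called 0 in both lists (1 regulator higher and 2 lower, 0 autophagy genes higher and 3 lower, at an unadjusted p under 0.05); 1 regulator was called higher without PCA injury 1 and 1 lower without PCA injury 3.

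**Figure D4:**
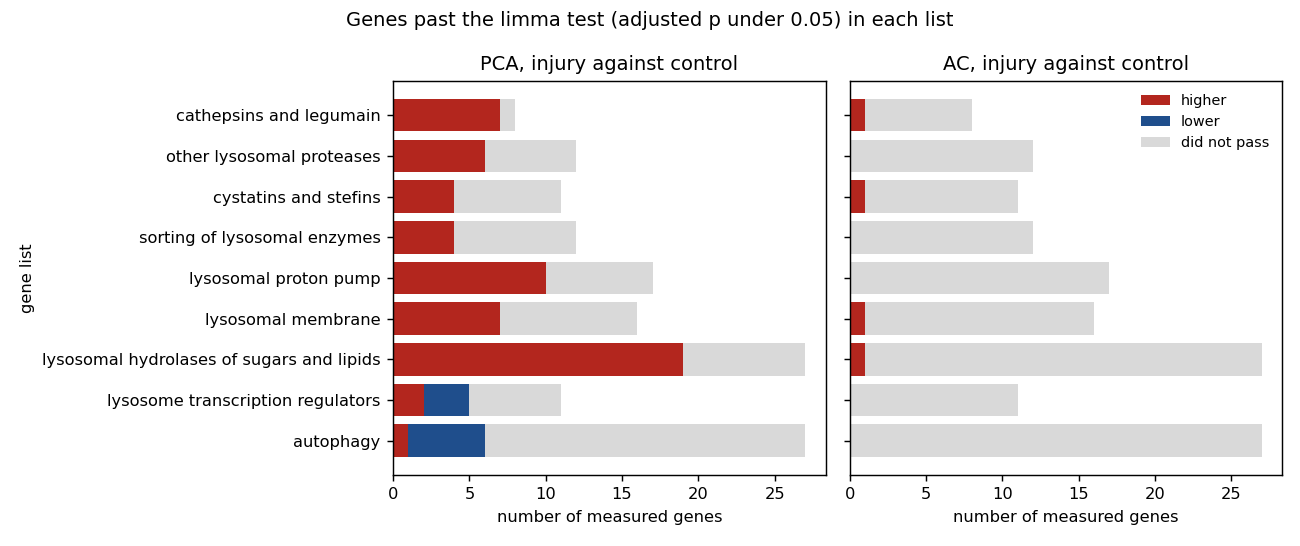
Number of measured genes (horizontal axis) in the cathepsin and legumain group and 8 further lists that were higher, lower or did not pass by limma at an adjusted p of 0.05, for injury against control in PCA and in AC. Of the 8 proteases 7 were higher in PCA and 1 in AC, while the autophagy list had 1 higher and 5 lower in PCA.

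For the 4 members whose range over the arrays was at least 1 log2 unit, the genes of most similar profile were sought. The search covered the 14329 genes with the members themselves left out. Likeness was the root mean square difference over 12 arrays between profiles centred on their own means, a description with no test. Closest to Lgmn, whose own spread on this measure was 0.71, were Unc93b1, the chaperone of endosomal Toll-like receptors (0.08), and RT1-DMb, an MHC class II peptide editor of the lysosomal route (0.10). Both were picked on these 12 arrays for their likeness to Lgmn, so their calls follow largely from that choice and are no separate support. Like Lgmn, both were called in each muscle. Unc93b1 was higher by 1.56 ± 0.17 in PCA and 0.98 ± 0.17 in AC (adjusted p = 0.0233), and RT1-DMb by 1.52 ± 0.18 and 0.85 ± 0.18 (adjusted p = 0.0429). The AC calls were lost without the 3 arrays with thyroid transcripts, at 0.96 ± 0.19 (adjusted p = 0.123) for Unc93b1 and 0.80 ± 0.20 (adjusted p = 0.156) for RT1-DMb. Leaving out AC control 1, AC control 2, AC injury 2 or AC injury 3 also ended both, and PCA control 3 or AC control 3 that of RT1-DMb. Closest to Ctss (spread 0.46) were Slc66a3 (0.06) and the matrix crosslinker Loxl1 (0.09), and closest to Ctsk (spread 0.60) were Pira2 (0.13) and the growth factor Mdk, midkine (0.15). Closest to Ctsl (spread 0.36) were the cytokine receptor subunit Il10rb (0.12) and Npc2, a lysosomal cholesterol carrier (0.12). Among the members themselves, Ctsb and Ctsl (0.13) and Ctsb and Ctsc (0.13) lay closest, and Ctsh and Lgmn (0.62) furthest apart. Ctsk and Ctss, which lie on chromosome 2 with 1 other protein-coding gene between them in RefSeq, differed by 0.20.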

How the data were processed

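The authors deposited 1 log2 value per probe set and array; the submitters' processing notes name RMA and Partek, without version or role. No source used here states the base of the logarithm; base 2 was assumed from RMA and the values, 2.57 to 14.04. RMA includes quantile normalisation, so each difference is relative to the rest of the array. The platform annotation named 1 gene for 15103 of 27342 probe sets, several for 317 and none for 11922. For each gene the probe set with the highest mean was kept, which left 14329 genes. Of the single symbols 15073 matched RefSeq (GRCr8) by gene identifier and 30 did not. Groups came from the sample titles.

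Group means were fitted to all 12 arrays together in limma 3.58.1 under R 4.3.3, with 8 residual and 3.14 prior degrees of freedom. Tests were two-sided, and p-values were adjusted by Benjamini-Hochberg across the 14329 genes with a threshold of 0.05. Named pathway genes are the 3 with the smallest p in PCA of each list and any called in AC; named macrophage markers are the first 3 listed; each likest gene is 1 of the 2 closest. Stfa3, Vps35, Rragd, Lamtor2, Bnip3l, Cst3, Lamp1, Tfeb, Fap, Itgam, Mmp9 and Calcr fall outside this rule and were named after their values were seen. Acta1 and Ckm, which head the skeletal muscle list, also fall outside this rule. The members, lists and rule were chosen with earlier results of these data known. On simulated data with 200 of 14329 genes changed, the fit recovered 55.2% of 1.5-fold and 92.5% of 2-fold changes for injury in PCA, and 74.6% and 83.6% for injury in AC. Both simulations used the same means and spreads with a single random draw of genes each, so their gap does not compare the muscles. Their noise was independent between genes, and far fewer genes changed than were called in PCA, so these shares need not hold for the real arrays. The number of arrays limits the precision. Motifs were searched, and plots made with matplotlib 3.10.9, in Python 3.11.15. The alternatives covered normalisation, probe-set choice, array weights, the fit's groups, the threshold, a replicate block and left-out arrays.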

Additional observations from a re-analysis of the deposited data

How the results depend on the processing

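The count of 7 proteases higher in injured PCA was 7 or 8 in all 25 alternatives run, and 7 to 8 when single arrays were left out. For injury in AC the main count of 1 was 2 with array weights, 2 with only the compared groups in the fit, 0 at a threshold of 0.01, 3 at 0.1, 0 without the 3 arrays with thyroid transcripts, and 0 to 3 with single arrays left out. For the difference of the injury effects the count of 0 was 1 with array weights, 1 at a threshold of 0.1, and 0 to 1 with single arrays left out. For PCA against AC in controls the count of 3 was 1 with a further quantile normalisation, 1 with only the compared groups, 0 at 0.01, 0 without the 3 arrays, and 0 to 4 with single arrays left out. For injured PCA against injured AC it was 0 throughout. With replicate number as a block the counts were 7, 0, 0, 1 and 0 in these 5 comparisons in order. Deviations of same-numbered arrays from their group means had correlations from -0.39 to 0.34. For PCA with AC these were -0.047, -0.335 and 0.029 in controls, and -0.393, 0.339 and 0.269 after injury. With 3 arrays a group this cannot settle whether arrays were paired. The numbers were not taken as pairs, as the labels give no pairing. Values that changed sign were all small and uncalled: Ctsh, PCA minus AC in controls, was 0.021 with a further quantile normalisation and 0.0083 without the 3 arrays; Ctss, PCA minus AC after injury, was -0.0048 with array weights; Ctsc and Ctsk there were 0.11 and 0.03 without the 3 arrays. With single arrays left out the range was -0.057 to 0.0083 for Ctsh and -0.28 to 0.035 for Ctsl between controls, -0.128 to 0.037 for Ctsh in the difference of effects, and for PCA minus AC after injury -0.06 to 0.105 for Ctsh, -0.073 to 0.11 for Ctss, -0.122 to 0.073 for Ctsc and -0.217 to 0.148 for Ctsk. Over all genes, 3697 were called for injury in PCA, 1865 at 0.01, 2257 with only the compared groups, 2335 without the 3 arrays and 5352 with all probe sets. In AC 274 were called, 703 with array weights, 59 with the replicate block, 619 with only the compared groups, 17 at 0.01, 957 at 0.1, 10 without the 3 arrays and 13 to 663 with single arrays left out. For the difference of effects 22 were called, 0 to 474 over the alternatives, and between controls 1523, 560 to 2626. Of the other genes called in AC by name, Cst7 passed with the replicate block (adjusted p = 0.00892), and Cd63, Unc93b1, Fap, Cd68, Gusb and RT1-DMb did not (adjusted p from 0.0529 to 0.0956). The causes were not tested. The number of arrays limits the precision.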
